A study of Mus musculus with 2 samples.

Results

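The genes described here are those of the epithelial-mesenchymal switch and its cadherins: the transcription factors Snai1, Snai2, Twist1, Zeb1 and Zeb2, the cadherins Cdh1, Cdh2 and Cdh11, and the intermediate filament gene Vim. They were chosen by symbol, and all 9 were present among the 32286 features of both count tables. RNA was counted by droplet single-cell sequencing with a 10x Genomics 5′ kit. Both libraries, replicates 1 and 2, hold cells of caudal tissue, pooled from several embryonic day 8.5 embryos and dissociated with an enzyme. The mice were C57BL/6J and wild type, and the labels give 1 group with no treatment. The study as titled is about lineage tracing of neuromesodermal progenitors, a caudal population from which spinal cord and paraxial mesoderm are known to arise. The comparisons below are therefore between cell classes within each library, and nothing in the labels says that each library had its own pool of embryos. The p-values therefore measure only how far differences between cell classes disagree between these libraries.

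In an epithelial-mesenchymal transition, epithelial cells loosen their junctions and leave as single cells. It is known from the primitive streak, where epiblast becomes mesoderm. Snail and Zeb proteins are known to bind E-boxes, short DNA motifs, and to repress Cdh1 (E-cadherin, the main adhesion molecule of many epithelia). Cdh2 (N-cadherin) is known from mesoderm and neural tissue, and the exchange of Cdh1 for Cdh2 is called the cadherin switch. Epithelia can also form again from mesenchyme, as when presomitic mesoderm buds off somites.

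Barcodes with at least 2000 UMIs (unique molecular identifiers, each a counted molecule) and 0.3 to 10% mitochondrial UMIs were kept, 11244 of 30449 in replicate 1 and 8328 of 18245 in replicate 2. They held medians of 17872.5 and 13685.5 UMIs. A barcode entered a gate when at least 2 genes of that gate's marker list had a UMI and no other list reached 2. Some gates allowed an overlap, as given below. None of the 9 genes is a marker. The gates took in 5423 (48.2%) and 5009 (60.1%) of the kept barcodes. A gate's name says which markers selected its cells. The caudal epiblast gate (Nkx1-2, Epha5, Hes3, Cyp26a1, Wnt8a) held 370 and 388 cells. The posterior presomitic mesoderm gate (Tbx6, Msgn1, Dll3, Hes7, Cited1) held 724 and 536. Cells that met both lists form the turning epiblast gate, with 1136 and 842 cells. Cells with a UMI of each of Mixl1 and T, known from the primitive streak, form the Mixl1 and T gate, with 231 and 136 cells. These cells could also meet the caudal epiblast list, the posterior presomitic mesoderm list or both, and were then counted only here. The later paraxial gates were anterior presomitic mesoderm (77 and 78 cells, by Mesp2, Mesp1, Ripply1 and Ripply2) and somite (229 and 133 cells). Lateral plate mesoderm, allantois, endothelium, preneural, neural tube, gut endoderm and surface ectoderm gates completed the 13 that held at least 50 cells in each library.

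Genes outside the marker lists bore on the names. Fgf8, a growth factor known from the caudal end of the embryo, was at 420.3 and 344 CPM (the gene's UMIs scaled to the same total for every gate and library) in the turning epiblast gate, against 153 and 142 CPM in the caudal epiblast gate. Pax3 was at 135 and 133 CPM in the somite gate and Cdh5 at 346 and 295 CPM in the endothelium gate. Sox3 was at 165 and 289.8 CPM in the neural tube gate, and Krt18 at 1141 and 689 CPM in the surface ectoderm gate. Sox3 was also at 164 and 291 CPM in the preneural gate and 130 and 176 CPM in caudal epiblast. Krt18 was at 1672 and 1280 CPM in the gut endoderm gate and 869 and 435 CPM in lateral plate. Neither gene told its gate apart from these. The gut endoderm gate held another cell type in unequal parts. The extraembryonic endoderm genes Ttr and Apoa1 together reached 10 UMIs in 151 of its 434 cells in replicate 1 and in 22 of 211 in replicate 2. In the other 12 gates at most 9 cells of a library did so. Gate and depth also moved together: median UMIs were 11183 and 13107.5 in the caudal epiblast gate, 15614.5 and 14490.5 in the turning epiblast gate, and 8791 and 10398.5 in the posterior presomitic mesoderm gate. The libraries shared 761 barcode sequences.

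**Figure D1:**
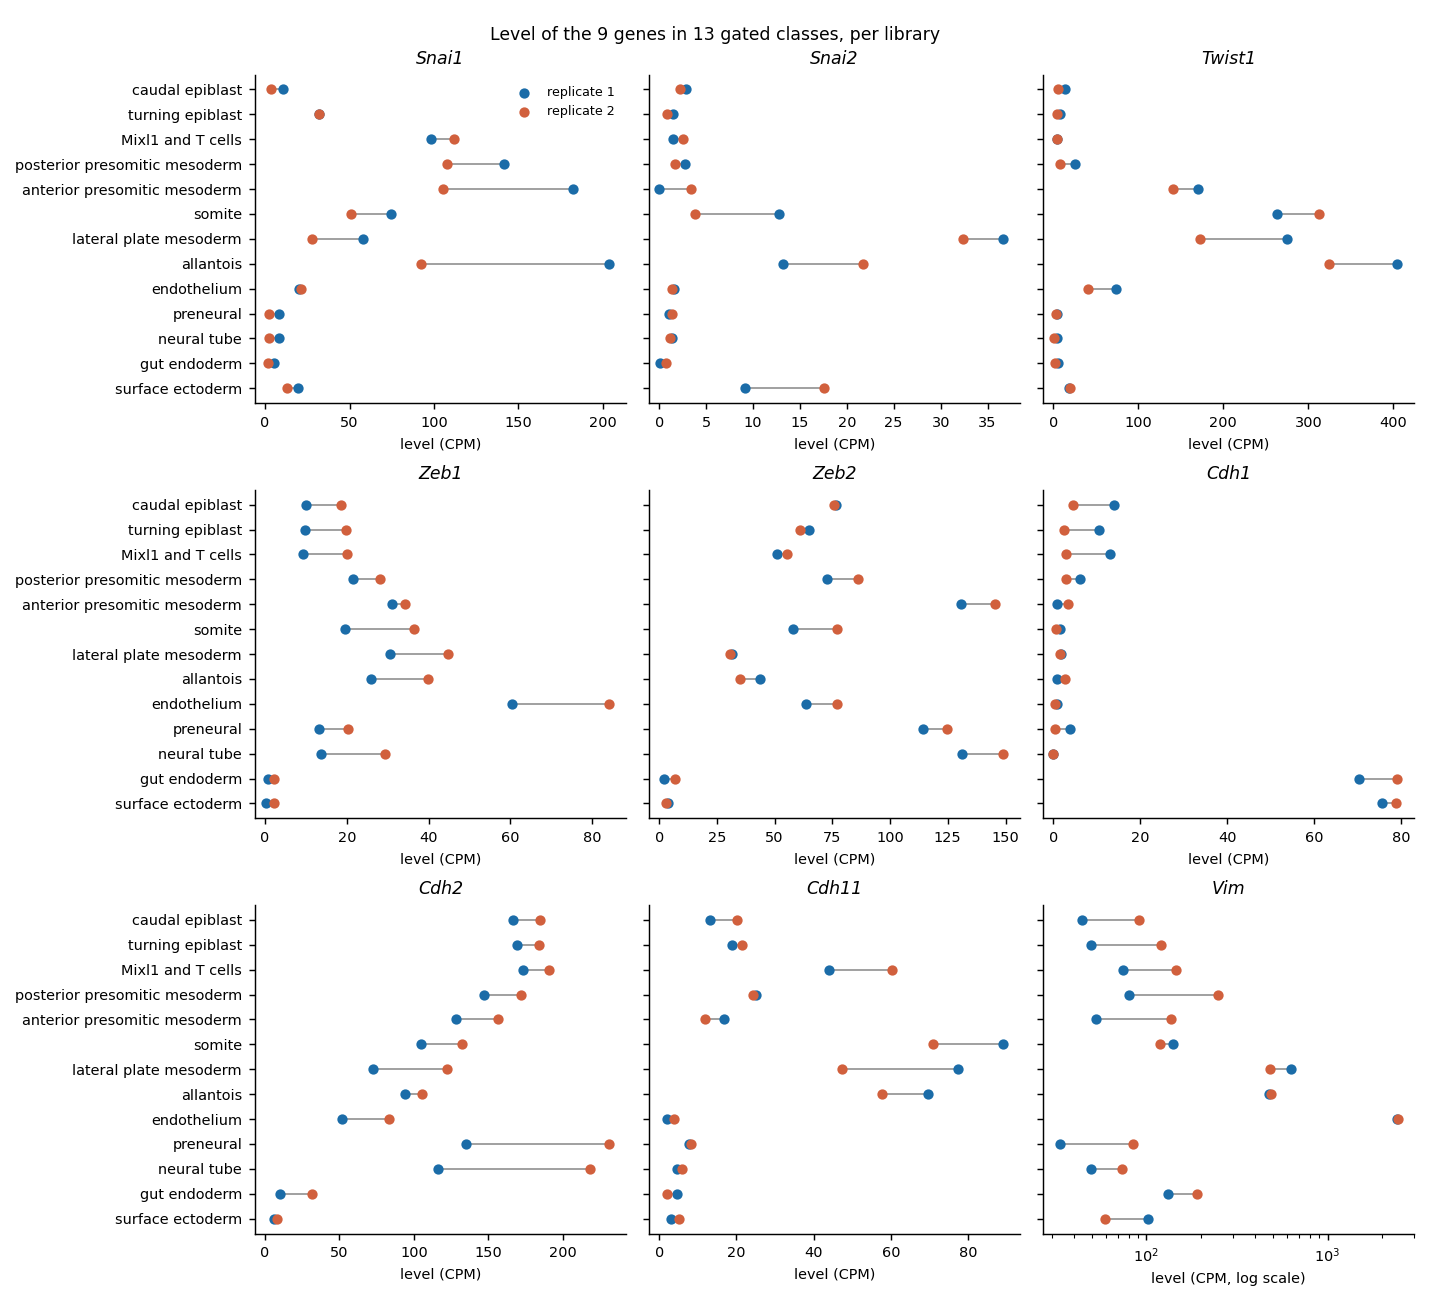
Level of each of the 9 genes in CPM (horizontal axis, log scale for Vim) in 13 gated classes (vertical axis), with a point for each library and a line joining the libraries of a class. Cdh1 stands at 70.4 CPM or more in the surface ectoderm and gut endoderm gates and at 14.0 CPM or less elsewhere, whereas Snai1 climbs across the gates from caudal epiblast to presomitic mesoderm.

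Snai1, the Snail repressor known to be needed for mesoderm cells to leave the mouse primitive streak, rose along the path from epiblast to presomitic mesoderm. It was at 32.0 and 32.0 CPM in the turning epiblast gate of replicates 1 and 2, 98.0 and 112 CPM in the Mixl1 and T gate, and 142 and 108 CPM in the posterior presomitic mesoderm gate, against 10.4 and 3.60 CPM in the caudal epiblast gate. All 3 gates lay above the caudal epiblast gate in both libraries. Relative to caudal epiblast, the fitted log2 fold change (± SE, n = 2 libraries) was 2.23 ± 0.36 in turning epiblast (edgeR adjusted p = 0.00407), 3.90 ± 0.37 in Mixl1 and T cells (1.63e-06) and 4.16 ± 0.36 in posterior presomitic mesoderm (3.14e-07). Replicate 2, with less Snai1 in its caudal epiblast gate, gave the larger difference each time: 3.04 against 1.60 in replicate 1 for turning epiblast, and 4.82 against 3.17 for Mixl1 and T cells. Without library as a block, the turning epiblast difference was 2.16 with an adjusted p of 0.445.

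The sequence ahead of Snai1 is shown because Snai1 was the only gene of the 9 to rise in turning epiblast, and that of Epcam, an epithelial adhesion gene with a profile much like that of Cdh1 (described further on), because Snail proteins are known to act through E-boxes. Both are the 250 bases ahead of the gene's start in RefSeq on build GRCm38.p6, written in the gene's direction with the E-box CAGGTG, or its reverse complement CACCTG, in capitals. The Snai1 stretch lies at chr2:167537945-167538194 and the Epcam stretch at chr17:87635729-87635978, both on the plus strand. The Snai1 gene itself is annotated at chr2:167538195-167542814, with Vim and Zeb2 on the same chromosome, Cdh1 and Cdh11 on chromosome 8, Twist1 on 12, Snai2 on 16, and Cdh2 and Zeb1 on 18.
Snai1: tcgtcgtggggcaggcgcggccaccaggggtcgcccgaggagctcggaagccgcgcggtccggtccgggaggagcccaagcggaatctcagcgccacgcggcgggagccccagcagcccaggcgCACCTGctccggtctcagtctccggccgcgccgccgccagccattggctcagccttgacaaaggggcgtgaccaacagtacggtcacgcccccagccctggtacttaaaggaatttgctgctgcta
Epcam: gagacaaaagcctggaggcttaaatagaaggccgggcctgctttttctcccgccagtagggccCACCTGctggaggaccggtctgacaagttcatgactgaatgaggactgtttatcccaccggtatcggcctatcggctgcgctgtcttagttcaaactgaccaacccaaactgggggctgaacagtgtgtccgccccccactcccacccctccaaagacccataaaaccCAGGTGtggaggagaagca
The first base of the Snai1 match lies 126 bases before the start, and those of the Epcam matches lie 187 and 19 bases before it. Windows were matched for 4 of the 9 genes (Snai1, Twist1, Zeb2 and Vim), and only that of Snai1 held the motif. Of all 32851 promoter windows of 300 bases, 20.2% held it on either strand, so a match is a description of the letters and not a site.

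Within the early path, Snai1 was higher in cells with more presomitic markers. Cells of the caudal epiblast, turning epiblast, Mixl1 and T, and posterior presomitic mesoderm gates were thinned to 5000 UMIs each and grouped by how many of the 5 posterior presomitic markers had a UMI, a grouping chosen after the data were seen. In replicate 1, Snai1 was at 9.68, 9.98, 22.8, 70.7, 138 and 163 CPM in cells with 0 to 5 markers. In replicate 2 it was at 6.55, 7.56, 21.1, 98.6, 130.4 and 147 CPM. The libraries gave the same course, flat up to 1 marker and steepest between 2 and 3 or 3 and 4. Over the same cells Cdh2 stayed between 160 and 209.7 CPM in replicate 1 and between 179 and 209 CPM in replicate 2. Cdh1 was at 14.2 CPM with 0 markers and 5.22 CPM with 5 in replicate 1. In replicate 2 it was at 3.57 CPM with 0 markers and had 0 UMIs in the 197 cells with 5, for which the exact upper bound is 3.75 CPM. Epcam was highest in cells with 1 or 2 markers, at 60.7 and 63.6 CPM in replicate 1 and 63.0 and 62.5 CPM in replicate 2. With 5 markers it was at 14.9 CPM in replicate 1 and 4.06 CPM in replicate 2. Vim differed in level between the libraries, with 43.9 CPM at 0 markers and 70.9 CPM at 5 in replicate 1, and 104 and 229 CPM in replicate 2. No test was run on these groups of cells.

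**Figure D2:**
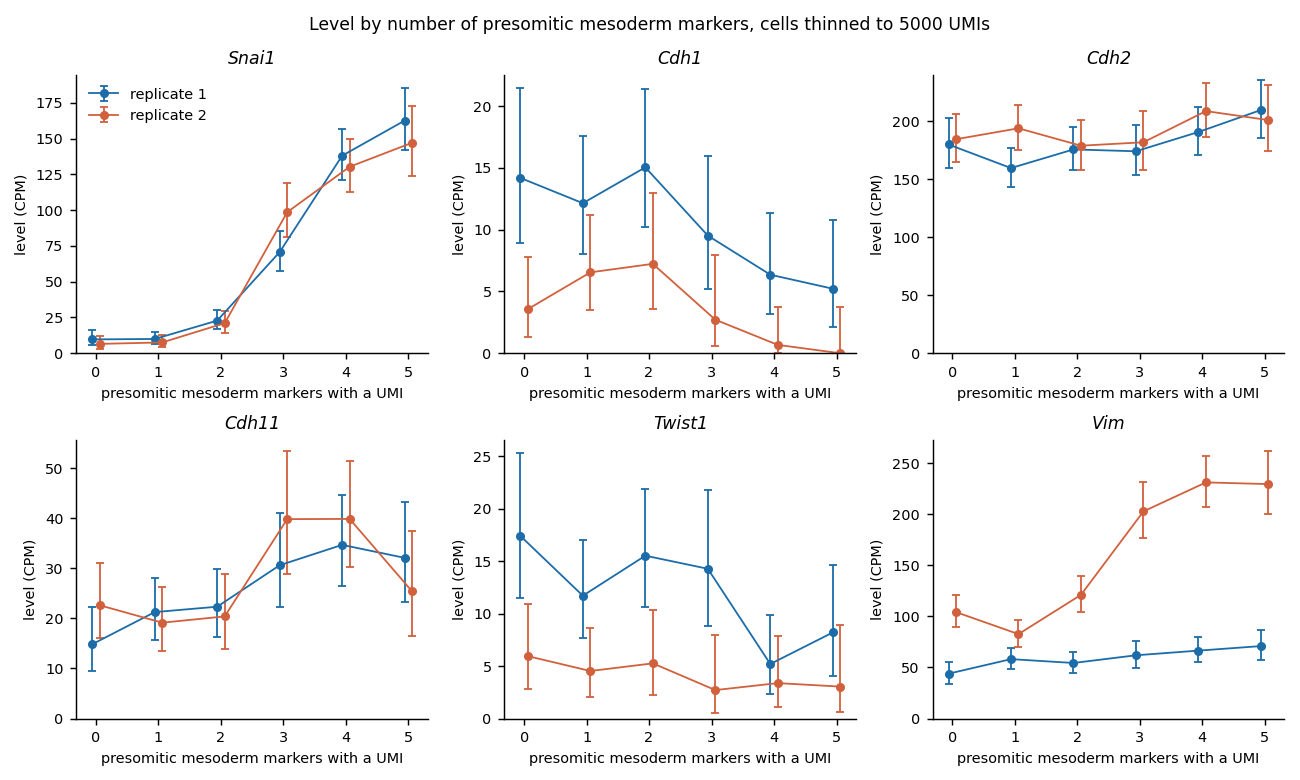
Level in CPM (vertical axis) of 6 of the genes by the number of posterior presomitic mesoderm markers with a UMI (horizontal axis), per library, in cells of 4 gates thinned to 5000 UMIs. Bars are exact 95% Poisson intervals, which cover counting error only. Snai1 runs from 9.68 to 163 CPM in replicate 1 and from 6.55 to 147 CPM in replicate 2, while Cdh2 stays at 160 CPM or above at every step.

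Counted per cell, Snai1 gave the same order. At 5000 UMIs per cell it had a UMI in 12.9% (142 of 1103, exact Clopper-Pearson 95% interval 10.95 to 15.0) and 13.2% (110 of 834, 10.97 to 15.7) of turning epiblast cells, against 5.12% (2.89 to 8.30) and 2.53% (1.16 to 4.74) of caudal epiblast cells. In the posterior presomitic mesoderm gate the shares were 47.1% (42.5 to 51.7) and 41.6% (36.9 to 46.5). The caudal epiblast shares lay near those of the neural tube gate (3.49% and 2.50%) and the gut endoderm gate (2.70% and 0.976%), so Snai1 in caudal epiblast was not separable at this depth from the level in classes without mesoderm markers. Before thinning, the cells used had a median of 13205 and 13526 UMIs in caudal epiblast, 17207 and 14120 in neural tube, and 20989.5 and 12410 in gut endoderm. Unthinned, the turning epiblast shares were 26.1% and 24.2%.

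Past the posterior presomitic mesoderm, Snai1 was at 183 and 105 CPM in the anterior presomitic mesoderm gate and 74.6 and 50.7 CPM in the somite gate. The somite gate was lower in both libraries (log2 -1.24 and -1.04), but the fitted difference of -1.16 ± 0.31 did not pass (edgeR adjusted p = 0.0615). It passed in 4 of the alternative settings, among them the stricter gate of at least 3 markers (-1.46, adjusted p = 0.0144). Outside the paraxial line, Snai1 was at 204 and 92.1 CPM in the allantois gate and at 57.8 and 28.0 CPM in the lateral plate gate, which lay above caudal epiblast by 2.54 ± 0.36 on the log2 scale (edgeR adjusted p = 4.61e-05). The top 4 gates for Snai1 (allantois, both presomitic ones and Mixl1 and T cells) overlapped, each with the next in order.

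Snai2, known as Slug and as a neural crest and mesenchyme factor, had another distribution. It was at 36.7 and 32.4 CPM in the lateral plate gate, 13.1 and 21.7 CPM in the allantois gate, 9.19 and 17.5 CPM in the surface ectoderm gate, and 12.8 and 3.82 CPM in the somite gate. In the remaining 9 gates it did not exceed 3.42 CPM, and the caudal epiblast gate had 2.88 and 2.20 CPM. Lateral plate stood above all other gates in both libraries. Snai2 was higher in lateral plate than in caudal epiblast by 3.59 ± 0.44 on the log2 scale (edgeR adjusted p = 1.19e-05) and in surface ectoderm than in caudal epiblast by 2.20 ± 0.46 (0.00193; 1.55 and 2.75 in the libraries). It passed in none of the 5 comparisons from turning epiblast to somite in the main fit. With no filter on low counts it passed in somite relative to anterior presomitic mesoderm (2.29, edgeR adjusted p = 0.0403).

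Twist1, a bHLH factor of head, limb and somite mesenchyme, was low on the early path and high past it. It was at 169.8 and 140.2 CPM in the anterior presomitic mesoderm gate, against 25.7 and 7.45 CPM in the posterior one. The libraries did not overlap, and the difference was 3.24 ± 0.31 on the log2 scale (edgeR adjusted p = 3.52e-06; 2.72 and 4.16 in replicates 1 and 2). The somite gate had 264 and 313 CPM, a further difference of 0.95 ± 0.27 that did not pass (adjusted p = 0.0802). With no filter on low counts it passed (0.97, edgeR adjusted p = 0.000763). Allantois stood highest with 405 and 324 CPM, above the somite gate in both libraries. Lateral plate held 275 and 172 CPM, against 14.0 and 5.40 CPM in caudal epiblast (log2 4.49 ± 0.32, adjusted p = 1.34e-08). Turning epiblast (7.50 and 4.46 CPM) and Mixl1 and T cells (4.74 and 3.99 CPM) lay below caudal epiblast in both libraries, without passing (-0.61 ± 0.37 and -1.10 ± 0.53).

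Zeb1 and Zeb2, zinc finger repressors of the same family, shared their lowest gates and differed in their highest. Zeb2 was at 3.94 and 3.12 CPM in the surface ectoderm gate and 1.98 and 6.81 CPM in the gut endoderm gate, against 76.4 and 75.7 CPM in caudal epiblast. Zeb1 was at 0.262 and 2.30 CPM in surface ectoderm and 0.769 and 2.27 CPM in gut endoderm, against 9.97 and 18.6 CPM in caudal epiblast. Neither epithelial gate overlapped with caudal epiblast for either gene. On the log2 scale the differences were -4.31 ± 0.24 and -4.37 ± 0.25 for Zeb2 and -3.26 ± 0.33 and -3.10 ± 0.35 for Zeb1, in surface ectoderm and gut endoderm in turn (edgeR adjusted p from 1.17e-09 to 2.36e-06). Removing the cells with 10 or more Ttr and Apoa1 UMIs left Zeb2 in the gut endoderm gate at 2.35 and 7.22 CPM.

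Zeb2 stood highest in the neural tube gate, with 131 and 149 CPM, and in the anterior presomitic mesoderm gate, with 131 and 145 CPM. These gates did not differ beyond the spread between libraries. Neural tube exceeded caudal epiblast by 0.88 ± 0.18 on the log2 scale (edgeR adjusted p = 0.00994), and anterior exceeded posterior presomitic mesoderm by 0.80 ± 0.19 (0.0321). In the somite gate Zeb2 fell to 58.1 and 76.9 CPM, a difference from anterior presomitic mesoderm of -1.02 ± 0.20 (adjusted p = 0.00719). Without the library block all 3 differences kept their direction and lost the call (adjusted p from 0.0570 to 0.208). Lateral plate had 31.7 and 30.8 CPM and was below caudal epiblast by -1.28 ± 0.18 (3.63e-05).

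Zeb1, by contrast, was highest in the endothelium gate, with 60.3 and 84.1 CPM, above all 12 other gates in each library. Lateral plate held 30.5 and 44.8 CPM, higher than caudal epiblast by 1.39 ± 0.23 (edgeR adjusted p = 0.000242; 0.0986 without the block). Posterior presomitic mesoderm held 21.6 and 28.1 CPM, higher by 0.84 ± 0.24 (adjusted p = 0.0367). That call was lost in 3 alternatives (adjusted p from 0.154 to 0.613), among them gating on cells thinned to 5000 UMIs, where the difference was 0.44. Genes on the opposite strand overlap both in the annotation (Zeb2os for Zeb2, Gm10125 for Zeb1) and are features of the table. The strand setting of the counting is not stated in the labels.

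Cdh1 separated the epithelial gates of other lineages from everything on the caudal path. It was at 75.5 and 78.7 CPM in surface ectoderm and 70.4 and 79.1 CPM in gut endoderm, against 14.0 and 4.40 CPM in caudal epiblast. Both epithelia stood above caudal epiblast in each library and overlapped each other. The differences were 3.11 ± 0.46 for surface ectoderm (edgeR adjusted p = 9.71e-05; 2.40 and 3.997 in replicates 1 and 2) and 3.08 ± 0.47 for gut endoderm (6.39e-05; 2.37 and 4.01). The epithelial levels were alike in both libraries, and the caudal epiblast level was higher in replicate 1.

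From caudal epiblast on, Cdh1 ran low and without a step that passed the test. It was at 10.4 and 2.39 CPM in turning epiblast, 13.02 and 2.99 CPM in Mixl1 and T cells, 6.00 and 2.98 CPM in posterior presomitic mesoderm, 0.797 and 3.42 CPM in anterior presomitic mesoderm and 1.52 and 0.546 CPM in somite. Turning epiblast, Mixl1 and T and posterior presomitic mesoderm were each below caudal epiblast in both libraries, by -0.47 ± 0.48, -0.09 ± 0.58 and -0.91 ± 0.55 on the log2 scale. At 2 SE these values reach past a fall of 1 log2 unit and also past 0. The first 2 values changed sign in other settings, given in the closing section. Without the cells carrying Ttr and Apoa1, posterior presomitic mesoderm of replicate 1 was at 3.98 CPM, while caudal epiblast was at 13.7 CPM. In lateral plate, with 1.74 and 1.42 CPM, Cdh1 was lower than in caudal epiblast by -2.23 ± 0.54 (edgeR adjusted p = 0.00763; -2.78 and -1.43 in the libraries; 0.0594 without the block).

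In neural tube cells, which remain an epithelium, Cdh1 had 0 UMIs in both libraries, against 85 UMIs in caudal epiblast over both. At the floor of 3 UMIs over both libraries that is at least 9.59-fold lower. The fit did not pass (edgeR adjusted p = 0.0734), and it passed in 3 alternatives (adjusted p from 0.000431 to 0.0360). The preneural gate, which meets both the caudal epiblast and the neural tube lists, had 3.77 and 0.344 CPM.

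Counted per cell at 5000 UMIs, Cdh1 was found in 31.6% (27.0 to 36.4) and 33.7% (29.3 to 38.4) of surface ectoderm cells and in 28.2% and 32.7% of gut endoderm cells. In caudal epiblast the shares were 7.17% (21 of 293 cells, interval 4.49 to 10.7) and 3.37% (12 of 356, 1.75 to 5.81). Endothelial cells, known to lack Cdh1, gave 0 of 218 and 0 of 204 cells, which allows shares of up to 1.38% and 1.47% at 3 counts, with exact 95% upper bounds of 1.68% and 1.79%. The caudal epiblast shares lay above both limits, but in replicate 2 the interval reached down to 1.75%, below the exact bound. Turning epiblast, with 5.44% (60 of 1103) and 1.20% (10 of 834), Mixl1 and T cells, with 5.12% and 1.47%, and posterior presomitic mesoderm, with 2.71% (1.45 to 4.59) and 1.41%, had shares above the limits in replicate 1 only, and the posterior presomitic mesoderm interval there reached below the exact bound. In replicate 2 their Cdh1 was not separable from background at this depth. Endothelial cells had median depths of 20512.5 and 13666.5 UMIs before thinning. Without thinning, the shares were 13.8% and 4.64% in caudal epiblast, and 1.65% (4 of 243) and 0.450% (1 of 222) in endothelium. Unthinned cells of replicate 2 with Cdh1 were 21 of 842 in turning epiblast, 4 of 136 in Mixl1 and T and 11 of 536 in posterior presomitic mesoderm. The exact intervals of their levels began at 1.61, 1.10 and 1.70 CPM in turn. That of endothelium ended at 1.95 CPM, so they overlapped.

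**Figure D3:**
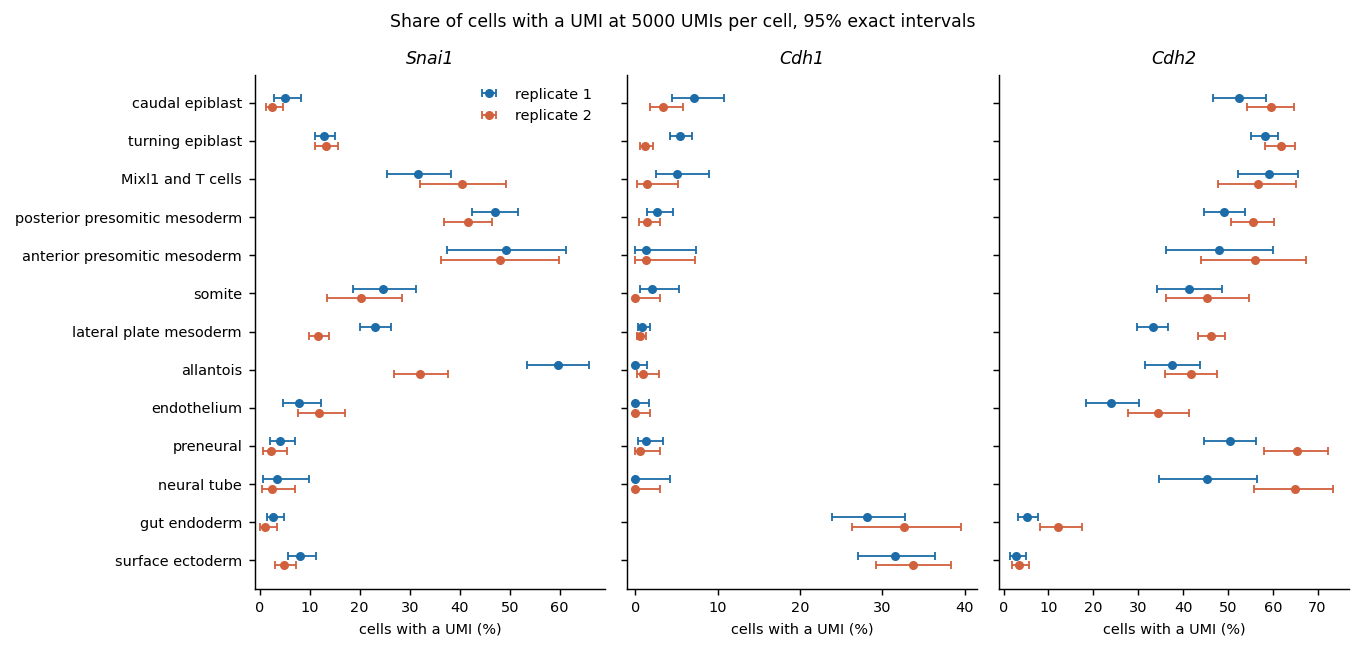
Share of cells with at least 1 UMI of Snai1, Cdh1 and Cdh2 (horizontal axis, percent) in 13 gates (vertical axis) after thinning each cell to 5000 UMIs, per library, with exact 95% intervals that cover counting error only. Cdh1 is found in 28.2 to 33.7% of gut endoderm and surface ectoderm cells and in 7.17% of cells or fewer in every other gate.

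Cdh2 was already present in caudal epiblast and did not change over the steps to presomitic mesoderm beyond the spread between libraries. It was at 169 and 184 CPM in turning epiblast, 173 and 191 CPM in Mixl1 and T cells and 147 and 172 CPM in posterior presomitic mesoderm, against 167 and 185 CPM in caudal epiblast. All 4 gates overlapped, and the log2 differences were 0.03 ± 0.21, 0.04 ± 0.22 and -0.13 ± 0.21. Of caudal epiblast cells, 52.6% (46.7 to 58.4) and 59.6% (54.2 to 64.7) had a Cdh2 UMI at 5000 UMIs. Past it, Cdh2 was at 128 and 156 CPM in anterior presomitic mesoderm and at 105 and 132 CPM in somite, neither a passing step.

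Other gates differed in Cdh2. Lateral plate had 72.5 and 122 CPM and was lower than caudal epiblast by -0.90 ± 0.21 (edgeR adjusted p = 0.00531; 0.167 without the block). Surface ectoderm had 5.77 and 7.71 CPM (-4.68 ± 0.28, adjusted p = 2.11e-09). Gut endoderm had 9.88 and 31.8 CPM (-3.30 ± 0.26, 3.07e-08), or 14.3 and 35.7 CPM without the cells carrying Ttr and Apoa1. In the neural tube gate the libraries disagreed, with 116 and 219 CPM, against 167 and 185 CPM in caudal epiblast (-0.10 ± 0.22). The notochord gate, with only 16 and 25 cells and so outside the tests, held both cadherins: Cdh1 was at 50.5 CPM (exact interval 21.8 to 99.5) and 52.6 CPM (28.0 to 90.0), and Cdh2 at 202 and 271 CPM. In replicate 1 that gate also held Ttr at 1262 CPM. Without its 1 cell with 10 or more Ttr and Apoa1 UMIs, Cdh1 was at 44.4 CPM.

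Whether single cells hold both cadherins or either alone was read as an odds ratio per gate and library at 5000 UMIs per cell. In turning epiblast, Cdh1 and Cdh2 were found together in 40 of 1103 and 5 of 834 cells, with odds ratios of 1.46 (95% interval 0.823 to 2.68) and 0.616 (0.141 to 2.70). In caudal epiblast the odds ratios were 0.809 (0.297 to 2.18) and 0.949 (0.254 to 3.87). Over all gates, 21 odds ratios could be formed for Cdh1 with Cdh2 and 22 for Snai1 with Cdh1, and every interval included 1. Snai1 and Cdh2 gave 28 odds ratios, of which 3 had an interval above 1: posterior presomitic mesoderm in both libraries (1.70, 1.17 to 2.49, and 1.53, 1.01 to 2.31) and Mixl1 and T cells in replicate 2 (2.39, 1.11 to 5.30). Cells of a library are not replicates, and these intervals cover counting error in 71 unadjusted comparisons.

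Without thinning, where cells differ in depth, some intervals for Cdh1 lay below 1. For Snai1 with Cdh1 this was so for 3 of 25 odds ratios. In posterior presomitic mesoderm, both genes were found in 9 of 724 and 1 of 536 cells, or 1.24% and 0.187%, where independence would give 2.42% and 1.12%. The odds ratios were 0.309 (0.124 to 0.705) and 0.0807 (0.00185 to 0.574), below 1 in both libraries. In Mixl1 and T cells the interval lay below 1 in replicate 1 (0.388, 0.161 to 0.881) and not in replicate 2 (1.40, 0.108 to 75.2). In turning epiblast it included 1 in both, with 0.840 (0.555 to 1.25) and 0.323 (0.0362 to 1.36). For Cdh1 with Cdh2 it lay below 1 for 4 of 23 odds ratios, all in replicate 2, among them turning epiblast (0.157, 0.0580 to 0.452) and posterior presomitic mesoderm (0.166, 0.0281 to 0.705). In replicate 1 these gates gave 1.34 (0.752 to 2.54) and 0.527 (0.235 to 1.15). For Snai1 with Cdh2 the posterior presomitic mesoderm values were 4.17 (3.02 to 5.78) and 3.77 (2.52 to 5.68). The part of depth, and of the cells carrying Ttr and Apoa1, in these values was not tested.

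Cdh11, a mesenchymal type II cadherin, rose early and again at the somite. It was at 44.1 and 60.4 CPM in the Mixl1 and T gate, against 13.1 and 20.2 CPM in caudal epiblast, without overlap (log2 1.59 ± 0.29, edgeR adjusted p = 0.00357; 1.71 and 1.56 in the libraries). It was at 25.1 and 24.2 CPM in posterior presomitic mesoderm (0.56 ± 0.29, not past the test) and at 16.7 and 11.97 CPM in anterior presomitic mesoderm. In the somite gate Cdh11 was at 89.2 and 70.9 CPM, higher than in anterior presomitic mesoderm by 2.48 ± 0.36 (adjusted p = 0.000481). Along the paraxial line the highest gate thus followed the lowest one, as the means have it. Lateral plate had 77.4 and 47.4 CPM (1.86 ± 0.27 against caudal epiblast, 7.03e-05; 2.53 and 1.19 in the libraries), and allantois 69.6 and 57.8 CPM.

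Vim, the filament gene used as a mark of mesenchyme, was highest in endothelium, with 2412 and 2432 CPM. Lateral plate had 629 and 478 CPM, against 44.3 and 91.3 CPM in caudal epiblast, and the difference was 3.11 ± 0.47 (edgeR adjusted p = 0.000104; 3.82 and 2.36 in the libraries). On the early path the libraries stood apart from each other: posterior presomitic mesoderm had 80.2 and 249.97 CPM, and turning epiblast 49.4 and 120.0 CPM. Posterior presomitic mesoderm was above caudal epiblast in both (0.85 and 1.48), with a fitted 1.24 ± 0.46 that did not pass (adjusted p = 0.119). It passed in 4 alternatives, among them keeping the barcodes under 0.3% mitochondrial UMIs (1.26, adjusted p = 0.0466). Gut endoderm, an epithelium, had 131 and 190 CPM, higher than caudal epiblast by 1.27 ± 0.46 (0.0367). The call was lost without the block (adjusted p = 0.124) and with gating on cells thinned to 5000 UMIs (0.79, adjusted p = 0.0540). Without the cells carrying Ttr and Apoa1 the value was 1.04 with an adjusted p of 0.0906, and in replicate 1 the gut endoderm level was then 99.8 CPM.

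**Figure D4:**
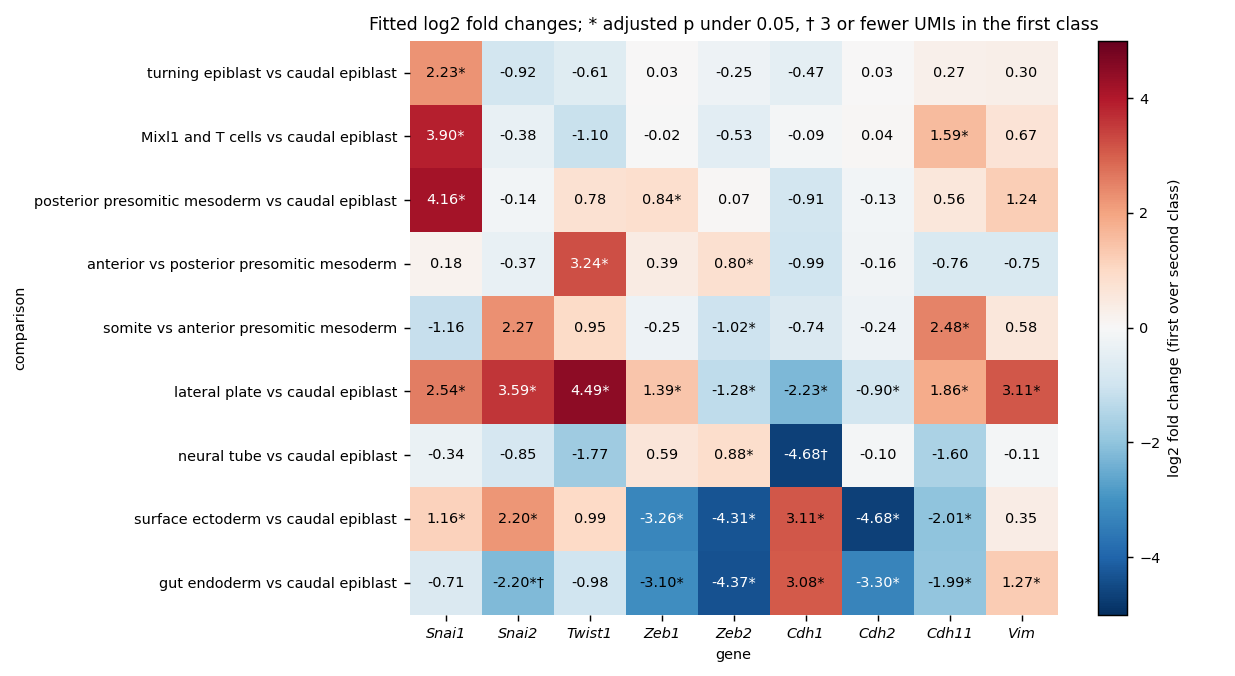
Fitted log2 fold change of each gene (columns) in each of the 9 comparisons (rows), first class over second, with an asterisk for an edgeR adjusted p under 0.05. A dagger marks 3 or fewer UMIs in the first class, where the fitted value depends on the prior count. All 9 cells of the lateral plate row pass (6 without the library block), against 1 or 2 in each of the 5 paraxial rows and 1 in the neural tube row. The rows also differ over all genes: 17.4% pass in the lateral plate row (7.69% without the block). In the paraxial rows 0.457 to 7.63% of all genes pass, and in the neural tube row 2.76%.

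Counted by comparison, 1 or 2 of the 9 genes passed at each paraxial step, and all 9 in lateral plate (6 without the block). Of the 13130 genes tested outside the marker lists, 0.457% changed between turning and caudal epiblast (0.289% higher, 0.168% lower). Of the 9 only Snai1 did, upward. Between Mixl1 and T cells and caudal epiblast 3.05% of genes changed (1.84% higher, 1.21% lower), and of the 9 Snai1 and Cdh11 rose. Between posterior presomitic mesoderm and caudal epiblast the share was 7.63% (3.63% higher, 4% lower), and Snai1 and Zeb1 rose. Between anterior and posterior presomitic mesoderm 1.5% of genes changed (0.922% higher, 0.579% lower), and Twist1 and Zeb2 rose. Between somite and anterior presomitic mesoderm 2.35% changed (1.04% higher, 1.32% lower), with Cdh11 higher and Zeb2 lower. The median log2 difference of the 9 was 0.03, -0.02, 0.56, -0.16 and -0.24 in these comparisons in turn, beside medians over all genes between -0.04 and 0.02.

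Against caudal epiblast, which is the second class of 7 of the 9 comparisons and so shared by them, lateral plate changed in 17.4% of all genes (8.74% higher, 8.63% lower) and in all 9 of the set: 6 rose and Cdh1, Cdh2 and Zeb2 fell, with a median of 1.86. Without the block the calls of Zeb1, Cdh1 and Cdh2 there were lost. Neural tube changed in 2.76% of genes (1.31% higher, 1.45% lower) and, of the 9, in Zeb2. Surface ectoderm changed in 22.3% of genes (12.1% higher, 10.2% lower) and in 7 of the 9, of which Snai1, Snai2 and Cdh1 were higher and Zeb1, Zeb2, Cdh2 and Cdh11 lower. The Snai1 value there was 1.16 ± 0.39 (19.3 and 12.8 CPM, against 10.4 and 3.60 CPM in caudal epiblast; edgeR adjusted p = 0.0388, and 0.269 without the block), and Cdh11 fell by 2.01. Twist1 had 18.9 and 19.7 CPM in surface ectoderm, against 14.0 and 5.40 CPM in caudal epiblast, and its difference of 0.99 ± 0.35 did not pass (adjusted p = 0.0501). It passed in 7 alternatives (adjusted p from 0.000937 to 0.0439), among them the gate of at least 3 markers (1.91). Gut endoderm changed in 38.9% of genes (20.6% higher, 18.3% lower) and in 7 of the 9, with Cdh1 and Vim higher and Snai2, Zeb1, Zeb2, Cdh2 and Cdh11 lower. Snai2 had 3 UMIs in gut endoderm, which makes it 9.88-fold lower (counting interval 2.999 to 51.2). That call was lost with the gate of at least 3 markers (-1.41, adjusted p = 0.162) and with gating on cells thinned to 5000 UMIs (-0.36, adjusted p = 0.670). Cdh11 fell by 1.99, with -1.35 and -3.24 in the libraries.

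Genes that work with the 9 were read from 4 lists. Of 22 epithelial genes (junction, splicing and epithelial transcription factor genes), 0 passed in turning epiblast and in Mixl1 and T cells relative to caudal epiblast (2 and 4 at an unadjusted p under 0.05 in edgeR, and 0 in both with DESeq2), and 1 fell in posterior presomitic mesoderm: the protease inhibitor Spint2, with 45.3 and 34.1 CPM, against 85.3 and 62.4 CPM in caudal epiblast (-0.87 ± 0.22, edgeR adjusted p = 0.0187). Of all genes, 0.457%, 3.05% and 7.63% were called in these comparisons in turn, so 0 or 1 of 22 lies near those shares. In anterior presomitic mesoderm relative to posterior, Spint2 (-1.96) and the junction gene Lsr (-0.53) fell, and the list's median was -1.36. The posterior gate held Ttr at 248 and 2.98 CPM in replicates 1 and 2, against 3.99 and 8.55 CPM in the anterior one. The part of such RNA in these values was not tested. In somite relative to anterior presomitic mesoderm 0 passed (1 at an unadjusted p under 0.05, and 0 with DESeq2), with a median of -0.27. In surface ectoderm 21 of the 22 were higher than in caudal epiblast, among them Rab25 (4.69 ± 0.38), and in gut endoderm all 22, led by Ovol2, with 127 and 23 UMIs, against 0 and 0 in caudal epiblast. In lateral plate 7 fell, among them Spint1 (-1.76 ± 0.28), and the desmosome gene Dsp rose, with 135 and 216 CPM, against 42.5 and 44.6 CPM in caudal epiblast (1.96 ± 0.27, adjusted p = 4.1e-05). In neural tube 5 fell, among them the claudin Cldn6, which had 0 UMIs in both libraries, against 20.6 and 19.8 CPM in caudal epiblast. Beside these later counts, 1.5% of all genes were called in anterior presomitic mesoderm and 2.35% in somite, where 0 of 22 lies near that share. The share was 22.3% in surface ectoderm, 38.9% in gut endoderm, 17.4% in lateral plate and 2.76% in neural tube.

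Of 22 tested mesenchymal genes (matrix, integrin, protease and further switch factor genes), 0, 4 and 8 rose in turning epiblast, Mixl1 and T cells and posterior presomitic mesoderm, and 0 fell. Of all genes, 0.289%, 1.84% and 3.63% rose in these comparisons in turn, so 0 of 22 in turning epiblast lies near that share. In turning epiblast 6 of the list had an unadjusted p under 0.05 in edgeR, and DESeq2 called 0. The forkhead factors Foxc1 and Foxc2 led the genes that rose: Foxc2 was at 56.4 and 52.9 CPM in posterior presomitic mesoderm, against 1.99 and 0.799 CPM in caudal epiblast (5.01 ± 0.43, edgeR adjusted p = 3.14e-07), and rose again to 413 and 456 CPM in anterior presomitic mesoderm (3.002 ± 0.27). In somite relative to anterior presomitic mesoderm, where 2.35% of all genes changed, Twist2 (3.18 ± 0.66) and Prrx2 (1.42 ± 0.23) rose and the matrix protease Mmp2 fell (-0.87 ± 0.18). In lateral plate 16 rose, led by the collagen Col3a1 (5.63 ± 0.52) and Prrx2 (5.00 ± 0.30). The list's median was 1.60 there, and 8.74% of all genes rose. In surface ectoderm 3 rose and 2 fell, which is 22.7% of the list beside 22.3% of all genes. In gut endoderm 6 rose and 3 fell, which is 40.9% beside 38.9%, and in neural tube 1 fell, which is 4.5% beside 2.76%. These shares lie near those of all genes.

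Of 16 other cadherin genes 9 were tested. In Mixl1 and T cells, lateral plate and surface ectoderm edgeR called 2, 5 and 4 of them, and DESeq2 1, 4 and 3. Of all genes, edgeR called 3.05%, 17.4% and 22.3% there. Cdh6 fell on the path that left Cdh2 level: it was at 18.9 and 8.98 CPM in Mixl1 and T cells and 7.43 and 7.82 CPM in posterior presomitic mesoderm, against 33.2 and 69.1 CPM in caudal epiblast (-1.68 ± 0.38 and -2.62 ± 0.37, edgeR adjusted p = 0.0199 and 0.000140). Cdh3 (P-cadherin) rose in Mixl1 and T cells (1.24 ± 0.31), lateral plate (2.33 ± 0.26), surface ectoderm (4.41 ± 0.26) and gut endoderm (2.49 ± 0.27). Surface ectoderm held 114 and 209 CPM of it, against 4.87 and 8.99 CPM in caudal epiblast, and neural tube had 1 UMI and 0 UMIs. Cdh4 (R-cadherin) rose in anterior relative to posterior presomitic mesoderm, with 18.3 and 30.8 CPM, against 3.14 and 3.16 CPM (2.81 ± 0.36). Of 6 catenins tested, the cytoplasmic partners of cadherins, 0 passed in the first 3 comparisons (0, 4 and 2 at an unadjusted p under 0.05 in edgeR, and 0 in each with DESeq2). Of all genes, 0.457%, 3.05% and 7.63% were called there, so 0 of 6 lies near those shares. Jup (plakoglobin) fell in anterior presomitic mesoderm (-2.38 ± 0.57) and rose in surface ectoderm (2.51 ± 0.23) and gut endoderm (2.49 ± 0.24).

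Across the 13 gates, with CPM averaged over libraries and taken as log2(CPM + 1), Cdh1 followed the epithelial splicing factor Esrp1 (Pearson r = 0.99), Epcam (0.98) and the claudin Cldn7 (0.98) most closely among 4813 genes. Epcam was at 463 and 573 CPM in surface ectoderm and 721 and 716 CPM in gut endoderm, against 46.7 and 40.6 CPM in caudal epiblast. Twist1 followed Prrx2 (0.95) and the collagen Col26a1 (0.93), and Snai2 followed the collagen Col1a1 (0.92). Snai1 followed Usp47 (0.92) and S1pr3 (0.89), Cdh11 followed Mtfr1l (0.89), Zeb1 followed Plekho1 (0.97), Vim followed Slc35b1 (0.98) and Nid1 (0.96), and both Zeb2 and Cdh2 had Hnrnph1 among their closest genes (0.96 and 0.93). Among the 9, Cdh1 ran opposite to Zeb1 (r = -0.91), Zeb2 (-0.87) and Cdh2 (-0.76), and less so to Twist1 (-0.35), Snai1 (-0.28) and Snai2 (-0.06). Zeb2 and Cdh2 ran together (0.92). These are descriptions over 13 points that come from the same libraries, and the gut endoderm and surface ectoderm gates hold the extreme values of Cdh1.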

How the data were processed

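Raw UMI counts for each gene in each barcode were deposited. The submitters' processing notes name Cell Ranger 6.1.1 and the build mm10. Barcodes under 0.3% mitochondrial UMIs were left out, except in an alternative. The 9 genes, the gates and the lists were chosen with earlier results of these data known. The 15 marker lists hold 67 genes. Caudal epiblast may overlap with posterior presomitic mesoderm (turning) or neural tube (preneural), anterior presomitic mesoderm with posterior or somite, and allantois with lateral plate. Mixl1 and T cells may also meet the caudal epiblast list, the posterior presomitic mesoderm list or both, and are then counted only as Mixl1 and T cells. Counts were summed per gate and library and fitted for all 13 gates at once with edgeR 4.0.16 (R 4.3.3; TMM, filterByExpr, quasi-likelihood F test, two-sided, prior count 2, library as block, since each library holds every gate). The method was tested on simulated counts with a fixed spread and no library effect, so that test does not give its error rate here. The 13130 genes behind the shares of changed genes leave out the marker genes. P-values were adjusted by Benjamini-Hochberg over all genes past the filter, markers among them, with a threshold of 0.05. The p-values measure how far gate differences disagree between 2 libraries, with a spread shared by all gates, and not the spread between embryos. Each SE is the size of the fitted log2 fold change divided by the square root of its F value. Named genes are all 9, up to 2 per list, comparison and direction, the 3 most alike by r, with additions made once values were seen (the notochord gate and the grouping by presomitic markers). A gene that the rule names is not reported here. Scrublet (Scanpy 1.11.5) marked 6.21% and 2.08% of the 22486 and 13512 barcodes with at least 2000 UMIs and up to 10% mitochondrial UMIs, against 24.4% and 14.6% expected, and they stayed in except in an alternative. Intervals are exact 95% and, like the floor of 3 counts, cover counting error only. The alternatives were DESeq2 1.42.0 and its size factors, no filter, no block, a gate of 3 markers, gating after thinning, doublets removed, low-mitochondrial barcodes kept, each library alone and, chosen after seeing the data, removal of barcodes with 10 or more Ttr and Apoa1 UMIs.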

Additional observations from a re-analysis of the deposited data

How the results depend on the processing

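Of the 33 calls among 81 tested values, none changed sign in any alternative, and 11 lost the call in at least 1. Under the DESeq2 test, DESeq2 size factors, no filter and doublet removal all 33 kept it. Without the replicate block 10 were lost, so that the number of the 9 genes past the threshold became 0 in turning epiblast, 1 in posterior presomitic mesoderm, 1 in anterior presomitic mesoderm, 1 in somite, 0 in neural tube, and 6 each in lateral plate, surface ectoderm and gut endoderm. The share of all genes called without the block was, in the same order, 0.0609%, 2.82%, 0.541%, 1.04%, 0.998%, 7.69%, 10.4% and 22.7%. Calls over all genes thus also became fewer in each of these comparisons. Gating after thinning to 5000 UMIs gave 4 in posterior presomitic mesoderm, 3 in neural tube and 5 in gut endoderm, no filter gave 5 in somite and 4 in neural tube, and DESeq2 gave 3 in neural tube. Beside these, the share of all genes called was 7.34%, 3.16% and 28.2% after thinning, 2.15% and 2.69% with no filter, and 3.01% with DESeq2. With 1 library there is no test. Over both such settings 143 of 162 values lay within 1 standard deviation of the fit, and 19 did not. That deviation is taken over the same library values, so most would lie within it however far the libraries disagree. The count therefore does not measure stability. Uncalled log2 values that changed sign were, with the gate of 3 markers, Twist1 0.26, Zeb1 -0.10 and Cdh2 -0.024 in turning epiblast, Cdh1 0.30, Snai2 0.42 and Cdh2 -0.019 in Mixl1 and T cells, Snai2 0.16 in posterior presomitic mesoderm and Vim 0.29 in neural tube. With gating after thinning they were Cdh1 0.20 and Zeb1 -0.068 in turning epiblast, Cdh1 0.19 and Snai2 0.011 in Mixl1 and T cells, Snai2 0.088 in posterior presomitic mesoderm, Snai2 1.04 and Zeb1 -0.078 in anterior presomitic mesoderm, Zeb1 0.36 in somite, Cdh2 0.054 in neural tube and Vim -0.011 in surface ectoderm. With low-mitochondrial barcodes kept they were Cdh1 0.10 and Zeb1 0.10 in Mixl1 and T cells, Zeb2 -0.061 and Snai2 0.094 in posterior presomitic mesoderm, Cdh2 0.31 in anterior presomitic mesoderm, and Twist1 0.38 and Cdh2 0.12 in neural tube. The cause was not tested. Thinning to 3000 UMIs gave Cdh1 in 4.22% and 1.33% of caudal epiblast cells and Snai1 in 9.25% and 9.07% of turning epiblast cells, and no thinning gave 13.8% for Cdh1 in replicate 1 and 26.1% and 24.2% for Snai1. For Cdh1, the floor of the neural tube gate at 3 counts is 1.97 and 1.77 CPM.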
